A study of Drosophila melanogaster with 8 samples.

Results

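Fly heads of 2 strains, collected at night (ZT16) and by day (ZT4), were compared with each other within each strain: a strain with a deletion in a miRNA cluster (the knockout) and the strain carrying only the tim-gal4 driver (the tim-gal4 control). The 4 arrays of these pairs were picked out of the 8 arrays of the study by strain and time label, with 1 array for each strain and time. The pairs were chosen with earlier results of these data known. The label of the knockout genotype is w1118 ; mir959-962-KO, and that of the tim-gal4 control is yw ; tim-gal4/CyO, in which the promoter of the clock gene timeless drives the yeast activator Gal4 over a CyO balancer chromosome. The other 4 arrays hold an overexpression strain, yw ; tim-gal4, UAS-mir-cluster/CyO, and the w1118 strain, which is labelled with w1118 alone. All flies were adults kept for 3 days in 12 h light and 12 h dark, and were collected 4 h (ZT4) or 16 h (ZT16) after lights on. They were frozen and their heads were removed before RNA extraction. The labels give neither the sex of the flies, nor the number of heads in a sample, nor an exact age.

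A fly head holds the brain, the compound eyes with their photoreceptors, glia, fat body, blood cells and the muscles of the mouthparts. The reproductive tract, the midgut and the indirect flight muscles lie in the thorax and abdomen. In males the testis makes sperm, the accessory gland secretes most of the seminal fluid proteins, and the ejaculatory duct and bulb add further secretions, among them the components of the mating plug. The midgut secretes trypsins, Jonah proteases and other enzymes that digest food, and oenocytes under the abdominal cuticle make the hydrocarbons that coat the fly.

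RNA was hybridised to Affymetrix Drosophila Genome 2.0 arrays, on which transcripts are read by probe sets, and all levels below are the deposited log2 intensities. The lowest value on each of the 8 arrays was 2.32, so values near it show no signal above background. A difference from such a value depends on this floor, so it describes the deposited values and is not a measured fold of a transcript. On each array between 39.8% and 40.8% of the probe sets reached log2 4, and the highest value lay between 14.8 and 14.9. With 1 array per strain and time, the differences within a pair have no replicate check and no test, and the number of arrays limits their precision. In whole heads, fewer cells of a type and less RNA per cell cannot be told apart.

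A probe set was used if it reached log2 4 on at least 2 of the 4 arrays, which left 7937 of 18769 probe sets that are not array controls. Those with 1 gene symbol stood for 6573 genes. Of the 7937, 409 (5.15%) were at least 2-fold higher at ZT16 in both strains, and are called raised here. Only 38 (0.479%) were at least 2-fold lower at ZT16 in both strains, and are called lowered. The same count in the other 2 strains, over the same 7937 probe sets, gave 13 (0.164%) that were at least 2-fold higher at ZT16 in both and 11 (0.139%) that were lower in both. Strain by strain, the share at least 2-fold higher at ZT16 was 5.57% in knockout heads, 5.62% in tim-gal4 control heads, 0.617% in w1118 and 0.403% in overexpression. The share at least 2-fold lower was 1.06%, 1.39%, 0.945% and 0.302% in the same order of strains. The raised probe sets with 1 symbol stood for 369 genes. At the edge of the 2-fold limit, the smaller of the 2 differences was 1.01 for Exn, 1.03 for CG8630 and 1.03 for Npl4 just inside it. Just outside it stood CG13088 and COX7AL2 at 0.99 and CG6409 at 0.98.

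**Figure D1:**
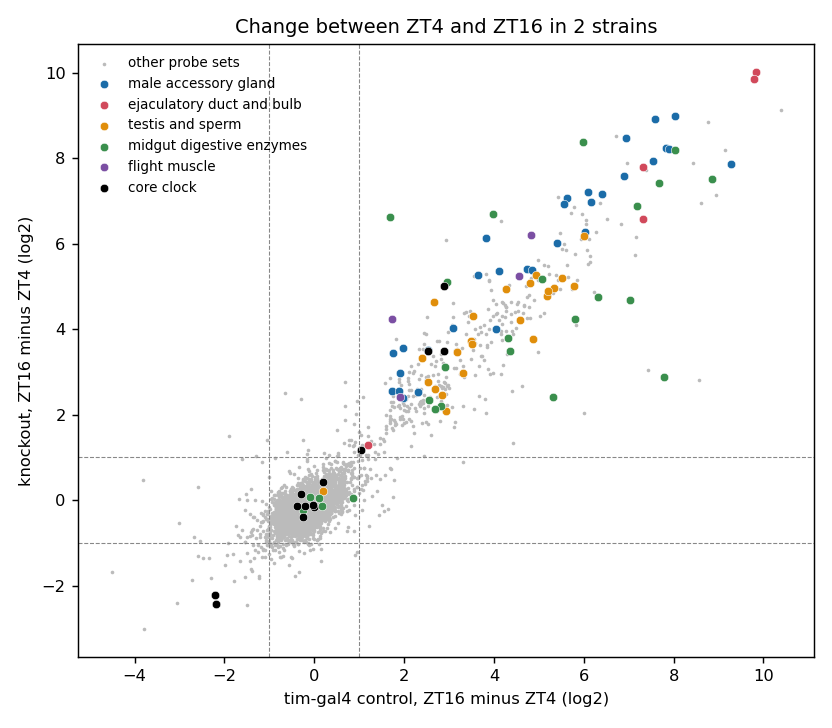
Difference between ZT16 and ZT4 (log2) for 7937 probe sets, with the knockout on the vertical axis and the tim-gal4 control on the horizontal axis. Coloured points are genes of 6 lists, grey points all other probe sets, and dashed lines mark a 2-fold difference; 409 probe sets lie beyond both lines in the upper right corner and 38 in the lower left corner.

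Most raised transcripts were near background at ZT4. Of the 409 raised probe sets, 363 were below log2 4 at ZT4 in both strains, 14 were above log2 6 at ZT4 in both, and 32 lay elsewhere. The 363 reached up to 12.6 at knockout ZT16 (median 6.10) and up to 12.1 at tim-gal4 control ZT16 (median 5.89), with the lowest at the limit of the filter. They could pass the filter only through the 2 ZT16 arrays, so their difference follows from the selection. The filter and the 2-fold limit did not use the other 4 arrays. The pairs were chosen with earlier results known, though, so these arrays are no independent check. There, 338 of the 363 were at or below log2 3 on each array. The median difference of the 363 between ZT16 and ZT4 was 0.00 in w1118 and 0.00 in overexpression. None of the 363 was at least 2-fold higher at ZT16 in w1118, and 1 was in overexpression. Summed as linear intensities, the 363 gave 79700 at knockout ZT16 against 1985 at knockout ZT4, and 68113 at tim-gal4 control ZT16 against 1941 at its ZT4. On the other 4 arrays this sum was between 1984 and 2336. Those of the 363 with 1 symbol stood for 329 genes, of which 79 were in a tissue list and 193 had only a CG or CR number for a name.

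As background for the lists, 409 of the 7937 probe sets that passed the filter (5.15%) were raised. A gene below log2 4 at ZT4 in both strains could pass only through the ZT16 arrays. A high share among the passed genes of a list therefore follows in part from the filter. The list with the most raised genes was that of the male accessory gland, where all 30 genes that passed were raised. Of 36 genes of the accessory gland list on the array, 30 were raised and none was lowered, and over all 36 the median difference between ZT16 and ZT4 was 5.37 in knockout heads and 4.08 in tim-gal4 control heads, against -0.14 and -0.17 over all 7937 probe sets. The median level of the list was 7.69 at knockout ZT16 and 6.41 at tim-gal4 control ZT16, and 2.32 or 2.33 on the other 6 arrays, so the size of these differences rests on the floor. In w1118 and in overexpression the median of the list was 0.00. Acp98AB, an accessory gland protein, was at 12.15 at ZT16 and 4.28 at ZT4 in knockout heads, and at 11.64 at ZT16 and 2.37 at ZT4 in tim-gal4 control heads. It was at 2.36 or 2.37 on the other 4 arrays, so the knockout ZT4 array alone showed it among the other 6.

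The list covers the main classes of seminal fluid protein. All 4 serpins on it (Spn28F, Spn38F, Spn77Bb and Spn77Bc), which belong to a family of protease inhibitors, were raised, with levels of 8.33 to 10.8 at knockout ZT16 and 7.72 to 9.26 at tim-gal4 control ZT16. All 3 lectins, the carbohydrate-binding proteins lectin-29Ca, lectin-46Ca and lectin-46Cb, were raised too, at 4.75 to 6.35 at knockout ZT16 and 4.30 to 5.40 at tim-gal4 control ZT16. Of 14 genes with an Acp name, 13 were raised, and of 6 with an Sfp name, 4 were.

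Peptides and proteins that act in the mated female were among the raised genes. SP, the sex peptide that changes a female's receptivity and egg laying after mating, was at 9.40 at knockout ZT16 and 7.96 at tim-gal4 control ZT16, against 2.33 on the ZT4 array of each strain. Acp26Aa, which encodes ovulin, a stimulator of ovulation, was at 9.30 and 2.32 at ZT16 and ZT4 in knockout heads, and at 8.49 and 2.32 in tim-gal4 control heads. Acp36DE, which is needed for sperm storage, was at 9.92 and 2.33 in knockout heads, and at 9.23 and 2.33 in tim-gal4 control heads. In each of these 3 genes the 2 ZT16 arrays stood alone, and the other 6 arrays were at 2.32 or 2.33.

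Other genes of the rule for named genes had the same layout. Acp53C14b was at 11.30 at knockout ZT16 and 10.36 at tim-gal4 control ZT16, and at 2.32 on the 6 other arrays. Mst57Da, a male-specific transcript, was at 11.20 at ZT16 and 2.98 at ZT4 in knockout heads, and at 10.22 at ZT16 and 2.32 at ZT4 in tim-gal4 control heads. Sfp24Bb was at 11.25 and 9.91 on the ZT16 arrays of the knockout and the tim-gal4 control, against 2.33 on the ZT4 array of each. The 6 genes of the list that did not pass the filter were antr, aqrs, intr, Acp95EF, Sfp38D and Sfp65A. Of these, aqrs was at 5.33 at knockout ZT16 and 3.25 at tim-gal4 control ZT16, and antr at 4.01 and 3.14.

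The ejaculatory duct and bulb showed the same 2 arrays. All 5 genes of this list on the array passed the filter and were raised, against 5.15% of all probe sets that passed. Their median difference was 7.78 in knockout heads and 7.33 in tim-gal4 control heads, against 0.00 in w1118 and in overexpression. EbpII, ejaculatory bulb protein II, was at 12.58 at ZT16 and 2.56 at ZT4 in knockout heads, and at 12.15 at ZT16 and 2.32 at ZT4 in tim-gal4 control heads. Ebp, another protein of the bulb, was at 12.21 and 2.37 in knockout heads, and at 12.11 and 2.32 in tim-gal4 control heads. For both genes the other 4 arrays were at 2.32 or 2.33.

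The duct genes did likewise. Anp, which encodes the antibacterial peptide andropin of the ejaculatory duct, was at 10.11 at knockout ZT16 and 9.64 at tim-gal4 control ZT16, against 2.33 at ZT4 in each. Dup99B, a duct peptide related to the sex peptide, was at 8.91 at knockout ZT16 and 9.65 at tim-gal4 control ZT16, against 2.32 at ZT4 in each. The exception in this list was Gld, glucose dehydrogenase, which was seen on all 8 arrays. Its levels were 6.44 at ZT16 and 5.15 at ZT4 in knockout heads, 6.74 and 5.56 in tim-gal4 control heads, and between 4.81 and 5.60 on the other 4 arrays.

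Some genes for the structure of sperm were raised, and regulators of spermatocytes were not seen. Of 60 genes of the testis and sperm list on the array, 22 were raised, 37 did not pass the filter, and m-cup passed without being raised. Thus 22 of the 23 that passed were raised, against 5.15% of all probe sets that passed. Over all 60 the median difference was 0.54 in knockout heads and 0.33 in tim-gal4 control heads, against 0.00 in w1118 and in overexpression. All 7 genes of the Mst84D, Mst87F and Mst98C group, which encode cysteine-rich and other structural proteins of the sperm tail, were raised. All 5 genes for proteins that pack DNA in sperm (ProtA, ProtB, Mst77F, tHMG1 and tHMG2) were raised as well, to 4.80 to 7.70 at knockout ZT16 and 4.71 to 7.36 at tim-gal4 control ZT16, against at most 2.60 on the other 6 arrays.

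The named testis genes were seen on both of these ZT16 arrays. ocn, a protein of the testis, was at 8.51 at knockout ZT16 and 8.33 at tim-gal4 control ZT16, against 2.32 on the ZT4 array of each. Mst87F was at 7.33 and 8.12 on the ZT16 arrays of the knockout and the tim-gal4 control, against 2.33 at ZT4 in each, and Mst84Dc was at 8.05 and 7.67, against 2.96 and 2.86 at ZT4. The sperm leucyl aminopeptidase S-Lap7 was at 7.53 and 7.84, against 2.34 and 2.32 at ZT4. betaTub85D, the tubulin of the sperm tail, was at 7.29 at ZT16 and 2.50 at ZT4 in knockout heads, and at 7.64 at ZT16 and 2.46 at ZT4 in tim-gal4 control heads.

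Regulators of the testis, and some structural genes of sperm, stayed near background. The 8 genes aly, comr, topi, tomb, can, sa, mia and nht, which switch on transcription in spermatocytes, were between 2.32 and 2.87 on all 8 arrays. The 3 dynein heavy chains kl-2, kl-3 and kl-5, encoded on the Y chromosome, were at 2.32 to 2.34 on all arrays. dj, a protein of the sperm tail, was at 2.60 at knockout ZT16 and 2.53 at tim-gal4 control ZT16. Tektin-C, of a family of proteins in the axoneme, was at 2.89 and 2.95 on these arrays, but at 6.58 at ZT16 and 6.89 at ZT4 in w1118. The 4 proteasome subunits of the testis on the array were at 3.09 or below. Of 8 genes with a cup name, w-cup was raised, at 6.96 at knockout ZT16 and 4.99 at tim-gal4 control ZT16.

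Hsp60C, COX4L and eIF4E3, testis forms of housekeeping proteins, were raised beside partners that were not. These genes were picked after their values were seen. Hsp60C, a mitochondrial chaperone, was at 6.36 at ZT16 and 2.34 at ZT4 in knockout heads, and at 6.82 at ZT16 and 2.34 at ZT4 in tim-gal4 control heads. Its partner Hsp60A was at 9.47 and 9.56 in knockout heads, and at 9.21 and 9.54 in tim-gal4 control heads. COX4L, a form of a subunit of cytochrome c oxidase, was at 5.45 at ZT16 and 2.36 at ZT4 in knockout heads, and at 5.63 and 2.48 in tim-gal4 control heads, while COX4 stayed between 10.8 and 11.4 on all 8 arrays. TrxT, the thioredoxin of the testis, for which no partner was compared, was at 6.96 at knockout ZT16 and 6.85 at tim-gal4 control ZT16, against 2.33 and 2.32 at ZT4. The translation factor eIF4E3 was at 5.90 and 5.70 on the ZT16 arrays of the 2 strains, against 2.36 and 2.53 at ZT4, and eIF4E1 was between 9.59 and 9.89 on all 8 arrays.

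Digestive enzymes of the midgut were the most uneven group. Of 57 genes of this list on the array, 20 were raised and 32 did not pass the filter. Thus 20 of the 25 that passed were raised, against 5.15% of all probe sets that passed. Over all 57 the median difference was 1.12 in knockout heads and 1.09 in tim-gal4 control heads, against 0.00 in w1118 and in overexpression. Of 14 Jonah-type serine proteases, 6 were raised. Jon65Aiv was at 10.53 at knockout ZT16 and 10.35 at tim-gal4 control ZT16, against 2.34 and 2.33 at ZT4. Jon65Aiii was at 9.76 and 10.02 on the ZT16 arrays of the knockout and the tim-gal4 control, against 2.34 at ZT4 in each.

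Trypsins and Jonah proteases were not the same on the 2 ZT16 arrays. alphaTry, a trypsin, was at 9.83 at knockout ZT16 and 11.18 at tim-gal4 control ZT16, and at 2.32 on the other 6 arrays. betaTry, a near-identical trypsin that its probe set may not tell apart from other copies, was at 9.54 at tim-gal4 control ZT16 and 2.39 at knockout ZT16. The protease Jon99Fi was at 7.03 at knockout ZT16 and 2.32 at tim-gal4 control ZT16, and yip7, another Jonah-type protease, at 10.71 and 8.32. CG6295 was at 8.95 at knockout ZT16 and 4.01 at tim-gal4 control ZT16, and Muc68D, a mucin, at 7.03 and 9.36. All of these were between 2.32 and 2.34 at ZT4 in both strains.

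Maltases and alpha-mannosidases of this list that were well above background at ZT4 were not raised. The maltases Mal-A6, Mal-A7, Mal-A8 and Mal-A1, which split sugars, were raised; Mal-A1 was at 8.72 at ZT16 and 3.98 at ZT4 in knockout heads, and at 10.16 at ZT16 and 3.83 at ZT4 in tim-gal4 control heads. Mal-A5 and Mal-B2 were present on all arrays and were not raised: Mal-B2 was at 8.74 and 8.69 in knockout heads and at 11.04 and 10.17 in tim-gal4 control heads. Among the alpha-mannosidases, LManV and LManVI were raised, and LManI and LManII, at 5.18 to 11.1 on all 8 arrays, were not. The lysozyme LysP was at 6.46 at ZT16 and 4.05 at ZT4 in knockout heads, and at 7.65 at ZT16 and 2.34 at ZT4 in tim-gal4 control heads.

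Muscle divided into flight muscle and the rest. All 4 genes of the flight muscle list passed the filter and were raised, against 5.15% of all probe sets that passed. Their median difference was 4.74 in knockout heads and 3.23 in tim-gal4 control heads, against -0.00 in w1118 and 0.03 in overexpression. TpnC4, a troponin C of the indirect flight muscle, was at 8.55 at ZT16 and 2.36 at ZT4 in knockout heads, and at 7.15 at ZT16 and 2.33 at ZT4 in tim-gal4 control heads. fln, which encodes the thick-filament protein flightin, was at 7.59 and 2.34 in knockout heads, and at 6.89 and 2.34 in tim-gal4 control heads. Act88F, the actin of the indirect flight muscle, was at 7.56 and 3.33 in knockout heads, and at 5.05 and 3.33 in tim-gal4 control heads. These 3 genes were at 3.33 or below on the other 4 arrays. Act79B, the remaining gene of the list, was between 6.44 and 9.56 on all 8 arrays, so it was not confined to the 2 ZT16 arrays.

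Sarcomere genes that head muscle also uses had smaller differences. None of the 18 genes of the sarcomere list was raised in both strains, and the median difference was 0.43 in knockout heads and 0.49 in tim-gal4 control heads, against -0.06 in w1118 and 0.01 in overexpression. Mf, myofilin of the thick filament, was at 11.63 at ZT16 and 10.91 at ZT4 in knockout heads, and at 11.26 and 10.63 in tim-gal4 control heads. TpnC41C, another troponin C, was at least 2-fold higher in the knockout pair alone (difference 1.88), and the myosin light chain Mlc2 in the tim-gal4 control pair alone (1.09). Probe sets of the kinase gene Strn-Mlck disagreed: the one with the higher level was not raised, and another was at 6.29 at knockout ZT16 and 6.49 at tim-gal4 control ZT16, against 2.33 at ZT4 in each.

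Of 13 genes of the fat body and oenocyte list, 9 passed the filter and 3 were raised, all of them genes of lipid synthesis. Of all probe sets that passed, 5.15% were raised. Cyp4g1, the cytochrome P450 that carries out the last step of hydrocarbon synthesis in oenocytes, was at 12.78 at ZT16 and 3.94 at ZT4 in knockout heads, and at 12.92 at ZT16 and 4.16 at ZT4 in tim-gal4 control heads. It was between 3.04 and 5.45 on the other 4 arrays. The fatty acid synthase genes FASN2 and FASN3 were at 6.23 and 6.39 at knockout ZT16 and at 5.12 and 6.51 at tim-gal4 control ZT16, against 2.35 to 2.51 at ZT4 in these strains. The other genes of hydrocarbon synthesis on this list, the elongase eloF and the desaturases Fad2 and Desat2, were at 2.32 to 2.34 on all 8 arrays. Genes of lipid synthesis outside the list were not counted here. Among these, the elongase gene Elo68alpha was raised, at 7.57 at knockout ZT16 and 5.89 at tim-gal4 control ZT16. The yolk protein genes Yp1, Yp2 and Yp3, which are made by the fat body of females, were between 13.6 and 14.9 on all 8 arrays. Yp1 was the highest value on each array, so a rise may not have been readable there. The gene apolpp, the carrier protein of lipids in the blood, was between 13.1 and 13.5 on all 8 arrays.

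**Figure D2:**
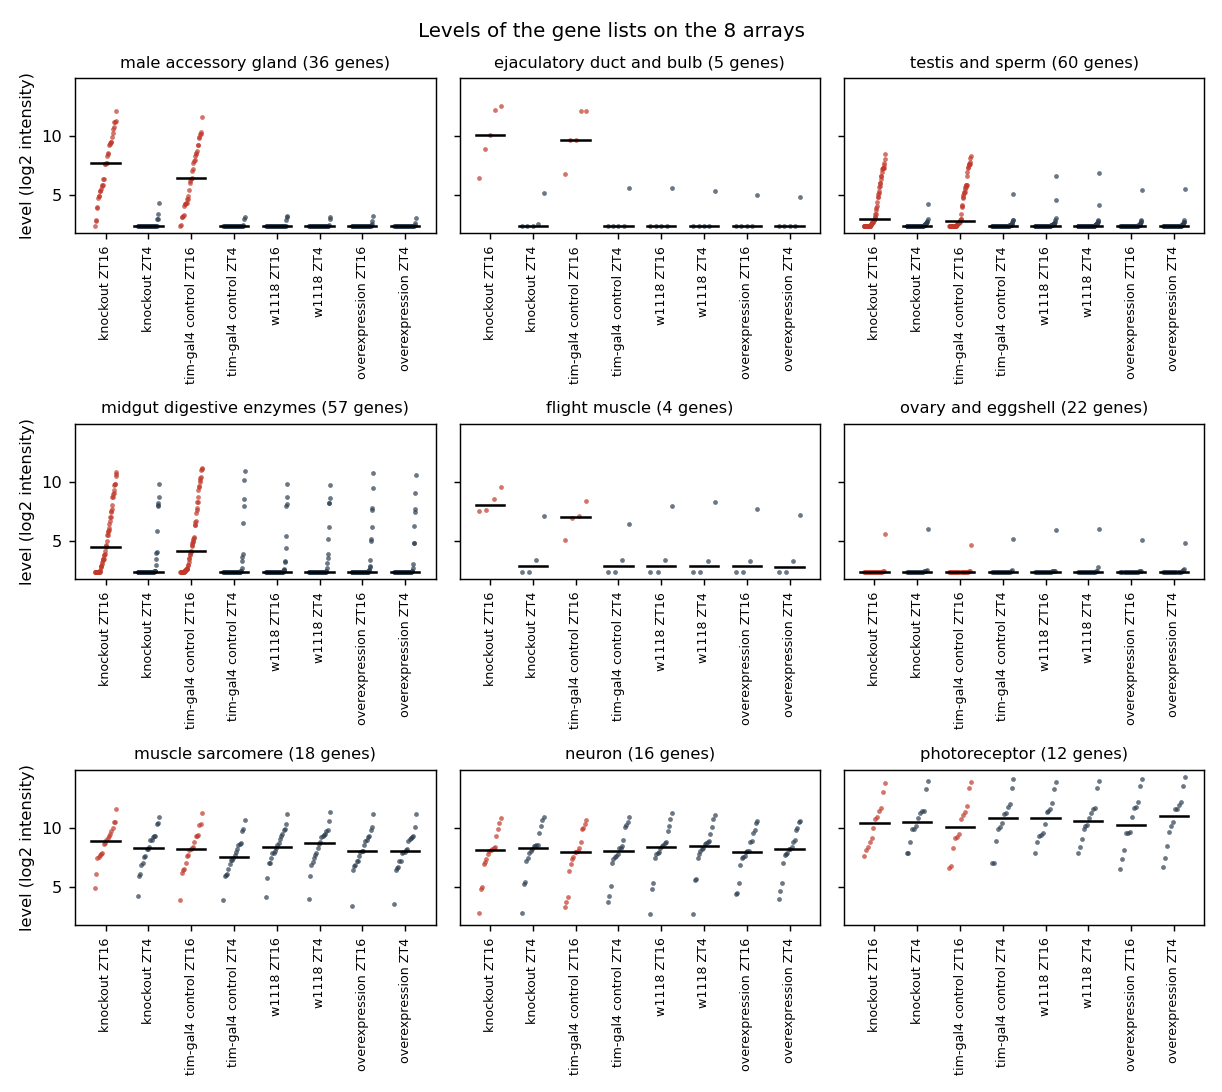
Levels (log2 intensity) of the genes of 9 lists on each of the 8 arrays, with 1 point per gene and a bar at the median. Red points are the ZT16 arrays of the knockout and the tim-gal4 control. There, the raised genes of the male tract, midgut and flight muscle stood above the other arrays. Of 60 testis genes 37, and of 57 midgut genes 32, did not pass the filter. Genes of the ovary list other than grk were at 2.46 or below on the red arrays. No gene of the neuron and photoreceptor lists was raised, but levels of single genes, such as elav and brp, differed between arrays, and inaC was lowered.

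No gene was raised in the lists of female and some other tissues. Of the probe sets that passed the filter, 5.15% were raised, and a gene that did not pass could not count as raised. For the genes of these lists that passed, 0 raised is therefore close to the background. Of 22 genes of the ovary and eggshell list, 1 passed the filter: grk, a signal from the oocyte, was at 5.59 at knockout ZT16 and 4.66 at tim-gal4 control ZT16, and differed from ZT4 by -0.41 and -0.45. The other 21 were at 2.46 or below on the ZT16 arrays of both strains. Send1 and Send2, proteases of the spermatheca, were at 2.32 on all 8 arrays. None of 8 genes of the Malpighian tubule, the organ of excretion, was raised, and 3 of them passed the filter. Of 13 genes of hemocytes, which the head also holds, 12 passed and none was raised.

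Of the markers of the labelled tissue, the head, all 12 photoreceptor genes, all 11 glia genes and 15 of 16 neuron genes passed the filter. The neuron gene VGlut, a transporter of glutamate, was at 2.76 at ZT16 and 2.78 at ZT4 in knockout heads, and at 3.67 and 3.72 in tim-gal4 control heads. brp, a protein of the active zone of synapses, was at 4.78 and 5.24 in knockout heads, and at 3.24 and 4.19 in tim-gal4 control heads. None of 16 neuron genes was raised, and the median difference was -0.27 in knockout heads and -0.25 in tim-gal4 control heads, against 0.01 in w1118 and -0.18 in overexpression. Snap25, a protein of synaptic vesicle release, was at 10.82 at ZT16 and 10.96 at ZT4 in knockout heads, and at 10.65 and 10.90 in tim-gal4 control heads. Over 12 photoreceptor genes the median difference was -0.21 in knockout heads and -0.40 in tim-gal4 control heads, against 0.10 in w1118 and -0.15 in overexpression. The gene inaC, the protein kinase C of photoreceptors, was lowered, with -1.14 in knockout heads and -1.14 in tim-gal4 control heads. It was also lower at ZT16 in w1118 (-0.52) and in overexpression (-0.97). The median of all 4146 probe sets above log2 6 at ZT4 in both strains was also below 0, at -0.12 in knockout heads and -0.15 in tim-gal4 control heads, against 0.00 in w1118 and -0.03 in overexpression. Whether the body transcripts have a part in this shift was not tested.

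The 12 raised genes named outside the lists were at 3.03 or below on the 6 other arrays. These genes, which were below log2 4 at ZT4 and ranked by the smaller of their 2 differences, were CG5107, CG14645, CG34324, BG642312, CG12374, CG31740, CG17376, CG12699, Obp51a, CG17097, CG9920 and CG16904. CG5107 was at 10.04 at knockout ZT16 and 9.72 at tim-gal4 control ZT16, and at 2.32 on the other 6 arrays. CG14645 was at 9.48 at knockout ZT16 and 11.28 at tim-gal4 control ZT16, against 2.34 at ZT4 in each. Obp51a, of the odorant-binding protein family, was at 9.27 at knockout ZT16 and 8.50 at tim-gal4 control ZT16, and at 2.32 on the other 6 arrays. Not all further raised genes had this layout: CAH5, of the carbonic anhydrase family, was also high in overexpression, with 8.51 at ZT16 and 5.61 at ZT4. It was at 5.86 and 2.91 in knockout heads, and at 6.85 and 2.93 in tim-gal4 control heads.

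Raised genes often lay next to each other on the chromosomes. In the gene order of a RefSeq table (Release 6), 11795 protein-coding genes of the array could be placed. Of these, 322 (2.73%) were raised from below log2 4 at ZT4 in both strains, and only these are counted here. Of the 322, 93 (28.9%) had another of the 322 as a neighbour in that order, in 41 runs. The longest runs held 4 genes each: Acp53C14a, Acp53C14b, Acp53Ea and Acp53C14c on chromosome arm 2R, and Mst84Dd, Mst84Dc, Mst84Db and Mst84Da on arm 3R. Runs of 3 included Mal-A6, Mal-A7 and Mal-A8 on 2R, and CG9029, Acp26Ab and Acp26Aa on 2L. Members of such families have related sequences, and no check of shared hybridisation was made.

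The raised genes of the lists did not all differ alike between the 2 ZT16 arrays, which come from different strains. A strain difference and the amount of a tissue cannot be told apart here, and genes of a list are not replicates. Of the 30 raised accessory gland genes, 29 were higher at knockout ZT16 than at tim-gal4 control ZT16, with a median difference between these arrays of 0.91. All 4 flight muscle genes were higher at knockout ZT16 too, by a median of 1.31. The 22 raised testis genes were split evenly, 11 higher on each array, with a median difference of 0.05. Of the 20 raised midgut genes, 8 were higher at knockout ZT16 and 12 at tim-gal4 control ZT16, and their differences ran from -2.33 to 4.94. Over the 363 raised probe sets that were below log2 4 at ZT4, 221 were higher at knockout ZT16 and 142 at tim-gal4 control ZT16, and 302 were within 2-fold of each other on the 2 arrays.

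**Figure D3:**
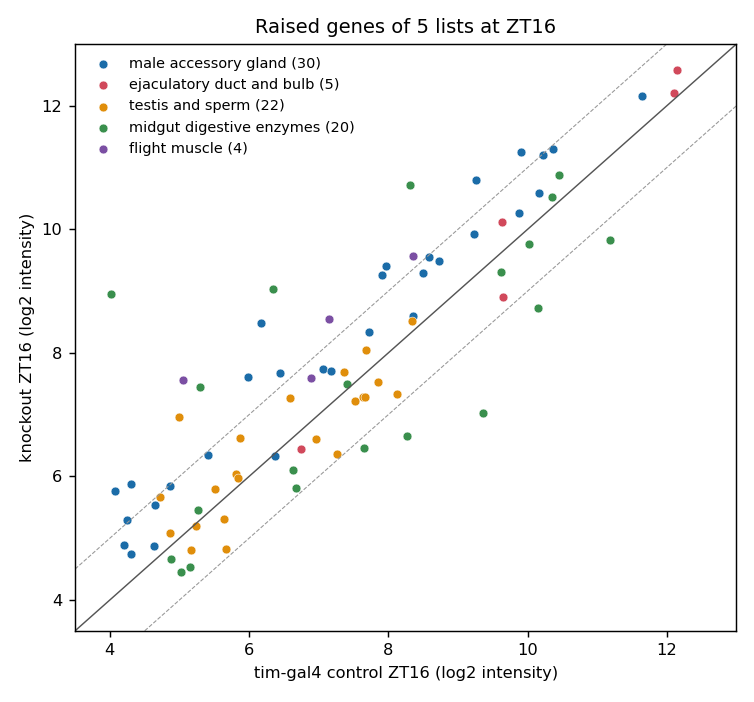
Level (log2 intensity) at ZT16 of the raised genes of 5 lists, with the knockout on the vertical axis and the tim-gal4 control on the horizontal axis; the solid line marks equal levels and the dashed lines a 2-fold difference. Of 30 accessory gland genes 29 lie above the solid line, the 22 testis genes lie evenly on both sides, and midgut genes scatter most widely.

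Some raised probe sets were also above log2 4 on the ZT4 array of the knockout. Beside Acp98AB at 4.28, CG18628 was at 4.23 on that array, against 12.11 at knockout ZT16, 11.19 at tim-gal4 control ZT16 and 2.69 to 2.79 on the 5 remaining arrays. In all, 13 raised probe sets reached log2 4 at ZT4 in knockout heads and not in tim-gal4 control heads, and 2 the other way round. Jhbp5 was at 8.31 at ZT16 and 6.98 at ZT4 in knockout heads, and at 7.75 at ZT16 and 3.33 at ZT4 in tim-gal4 control heads. CG10514 was at 7.43 and 5.76 in knockout heads, and at 5.20 and 3.61 in tim-gal4 control heads. On the other 4 arrays Jhbp5 was between 3.05 and 3.90 and CG10514 between 3.21 and 3.97.

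The day-night change of transcripts the head holds at ZT4 was small in number. Of 4146 probe sets above log2 6 at ZT4 in both strains, 14 (0.338%) were at least 2-fold higher at ZT16 in both and 24 (0.579%) at least 2-fold lower. With each pair centred on the median difference of these transcripts, the split was 17 higher and 15 lower. The pairs were chosen with earlier results known, and the 2-fold limit on these transcripts did not use the w1118 and overexpression pairs. There, 7 of the 14 higher ones had a difference in the same direction in both strains, and 3 were at least 2-fold higher in both. Of the 24 lower ones, 23 had the same direction in both strains, and 7 were at least 2-fold lower in both.

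Some of the higher transcripts were also higher at ZT16 in the other strains. Obp99a, an odorant-binding protein, was 2.56 higher at ZT16 in knockout heads and 4.40 higher in tim-gal4 control heads, and 1.88 and 3.09 higher in w1118 and overexpression. Slob, a binding partner of the Slowpoke potassium channel, was 1.90 and 1.98 higher, and 3.05 and 1.91 higher in w1118 and overexpression. gol, a ubiquitin ligase, was 1.72 and 1.20 higher, and 2.13 and 1.47 higher in those strains. These 3 were at least 2-fold higher at ZT16 in each of the 4 strains.

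Others did not reach 2-fold in the w1118 or the overexpression pair. tobi, an alpha-glucosidase that responds to insulin and to the fly's glucagon-like hormone, was at 9.87 at ZT16 and 6.73 at ZT4 in knockout heads, and at 9.26 and 6.57 in tim-gal4 control heads, but between 2.44 and 2.82 on the other 4 arrays. Scp1, a sarcoplasmic calcium-binding protein, was 2.23 higher in knockout heads and 2.97 higher in tim-gal4 control heads, and differed by -0.22 in w1118 and -0.02 in overexpression. The muscle actin gene Act79B was at 9.56 and 7.14 in knockout heads, and at 8.35 and 6.44 in tim-gal4 control heads, with differences of -0.30 in w1118 and 0.52 in overexpression. TpnC4, fln and Act88F of the flight muscle list, which also holds Act79B, were higher on the same ZT16 arrays. Whether such tissue has a part in the values of Scp1 and Act79B was not tested. Mpcp1, a carrier of phosphate into mitochondria, was 1.28 and 1.07 higher, and differed by -0.56 in w1118 and 0.10 in overexpression. Npl4, a partner of the ubiquitin-dependent unfoldase p97, was 1.03 and 2.45 higher, and differed by -0.17 in w1118 and 0.24 in overexpression. The probe set shared by Amy-p and Amy-d was 2.88 and 3.34 higher, and differed by 0.69 in w1118 and -0.48 in overexpression. It was between 6.94 and 11.1 on all 8 arrays. Both symbols are in the midgut list, but the counts of that list hold only probe sets with 1 symbol. Whether midgut tissue has a part in its values was not tested. In all, 10 of the 14 did not reach 2-fold at ZT16 in either of the other strains.

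**Figure D4:**
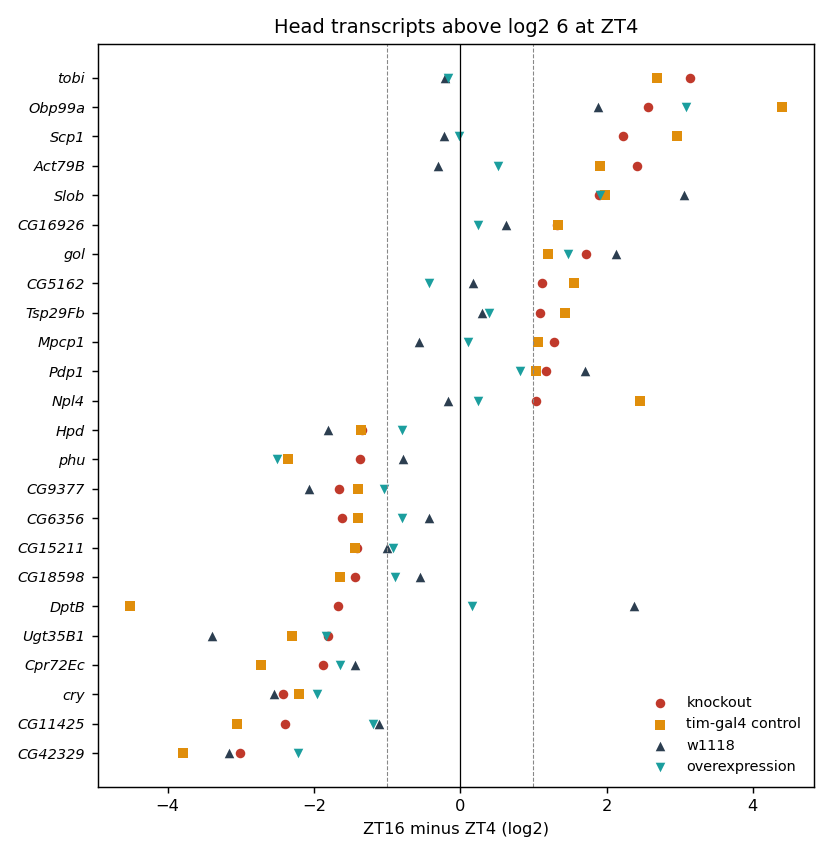
Difference between ZT16 and ZT4 (log2) in each of the 4 strains, for the 12 higher and the 12 lower named transcripts above log2 6 at ZT4, with 1 marker per strain and dashed lines at a 2-fold difference. Obp99a, Slob and gol have all 4 markers to the right of the upper line, while tobi, Scp1 and Act79B have the w1118 and overexpression markers between -0.30 and 0.52; on the lower side DptB alone has markers on both sides of 0.

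Lower transcripts mostly moved the same way in the other strains. cry, the blue-light receptor that resets the clock, was at 5.39 at ZT16 and 7.82 at ZT4 in knockout heads, and at 5.66 and 7.86 in tim-gal4 control heads, with differences of -2.55 in w1118 and -1.96 in overexpression. CG42329, which ranked first by the smaller of its 2 differences, differed by -3.01 in knockout heads and -3.79 in tim-gal4 control heads, with -3.16 and -2.22 in w1118 and overexpression. Cpr72Ec, a cuticle protein, differed by -1.87 and -2.72, and by -1.44 and -1.64 in those strains. Ugt35B1, an enzyme that adds sugars to small molecules, differed by -1.81 and -2.30, and by -3.39 and -1.83 in those strains. Hpd, an enzyme of tyrosine breakdown, differed by -1.34 and -1.35, and by -1.80 and -0.80. DptB, the antibacterial peptide diptericin B, was the exception, with -1.67 in knockout heads and -4.51 in tim-gal4 control heads, against 2.37 in w1118 and 0.16 in overexpression.

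The one fit across strains used time of day with strain as a block in limma, over 8300 probe sets that reached log2 4 on at least 2 of the 8 arrays. It includes the 4 chosen arrays, so it is no independent check of transcripts picked from them, and its error comes from how far strains differ in their time difference. At an adjusted p under 0.05 it called 13 probe sets higher at ZT16 (0.157%) and 18 lower (0.217%). Of the 14 higher head transcripts it called 3, and of the 24 lower ones 5. cry fell (limma, adjusted p = 0.0200), and so did CG42329 (limma, adjusted p = 0.0499), while Slob and gol rose (limma, adjusted p = 0.0499 for each). Obp99a (limma, adjusted p = 0.0701), tobi (limma, adjusted p = 0.319) and DptB (limma, adjusted p = 0.650) did not pass. Leaving out the knockout pair, the w1118 pair or the overexpression pair left 0 calls in limma, with 728, 1748 and 1519 probe sets at an unadjusted p under 0.05, and leaving out the tim-gal4 control pair left 1.

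The clock kept its day-night difference in both chosen pairs. tim, which encodes a repressor of the fly clock, was at 10.82 at ZT16 and 5.82 at ZT4 in knockout heads, and at 10.55 and 7.66 in tim-gal4 control heads. per, its partner, was at 7.64 and 4.14 in knockout heads, and at 7.41 and 4.53 in tim-gal4 control heads. vri, a repressor of Clk transcription, was at 9.09 and 5.60 in knockout heads, and at 8.89 and 6.35 in tim-gal4 control heads. Clk, the activator of per and tim, ran the other way, at 3.65 and 5.86 in knockout heads and at 3.06 and 5.26 in tim-gal4 control heads. All 4 genes passed the fit across strains (limma, adjusted p = 0.0157 for per and 0.0499 for tim, vri and Clk).

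Among 14 core clock genes on the array, of which 13 passed the filter, 4 were raised (tim, per, vri and Pdp1) and 2 were lowered (Clk and cry). Of all probe sets that passed, 5.15% were raised and 0.479% lowered. Pdp1, an activator of Clk transcription, was 1.17 and 1.04 higher in knockout heads and tim-gal4 control heads, and 1.70 and 0.82 higher in w1118 and overexpression (limma, adjusted p = 0.0651). cwo, another repressor, was 0.42 higher in knockout heads and 0.20 higher in tim-gal4 control heads, and 1.37 and 0.65 higher in w1118 and overexpression. cyc, the partner of Clk, differed by -0.14 and -0.20, and by -0.22 and 0.21 in those strains.

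**Figure D5:**
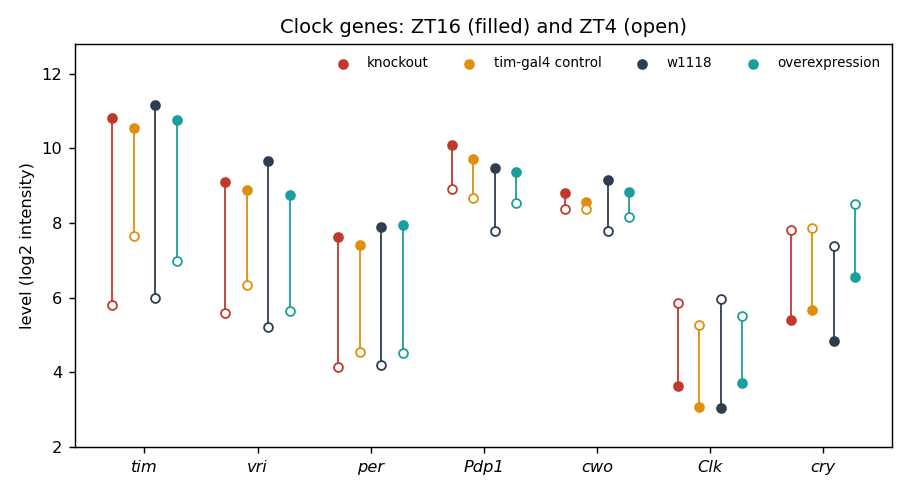
Level (log2 intensity) of 7 clock genes at ZT16 (filled circles) and ZT4 (open circles) in the 4 strains, which are set side by side for each gene. tim, vri, per and Pdp1 were higher at ZT16 in all strains, and Clk and cry were lower.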

How the data were processed

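RNA from fly heads was measured in 8 samples, 1 for each of 4 strains and 2 times. The deposited values are log2 intensities per probe set, and per the submitters' processing notes the authors used GCRMA, a method that corrects background and normalises arrays together. The GCRMA version and settings are not given in the sources used here. Values at the lower end come from that background model and are not quantitative. Nothing says whether samples came from separate collections, and with 1 array per condition the number of arrays limits the precision.

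Control probe sets (183) were left out. Names came from GEO's platform annotation: 13646 probe sets had 1 symbol, 402 several and 4721 none. Apart from the probe set of Amy-p and Amy-d, none was named from several. Symbols of the lists that this annotation does not hold were not analysed here. No probe set used here was annotated to a miRNA of the cluster, so its deletion and overexpression were not checked on these arrays. Sequences were not used here. Differences between ZT16 and ZT4 were taken within each strain and carry no test. Time of day was fitted with limma 3.58.1 in R 4.3.3 (lmFit and eBayes, strain as a block, 3 residual degrees of freedom, two-sided, Benjamini-Hochberg adjustment), and the script was tested on simulated data. Tables were made with pandas 2.3.3 and numpy 2.4.6 in Python 3.11.15, and figures with matplotlib 3.10.9.

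The pairs, the 16 lists and the rules were chosen with earlier results of these data known. Named were, per list, the 4 raised genes with the highest mean at ZT16 (if none was raised, the 2 with the highest mean); 12 raised genes outside the lists; the 12 largest rises and 12 largest falls above log2 6 at ZT4, by the smaller difference, among probe sets with 1 symbol; and all core clock genes. Other genes named were chosen after their values were seen. For genes with more than 1 probe set, that with the highest mean over the 4 arrays stood for the gene. Alternatives were a fold of 1.5 or 4, other level limits, no filter, centring, quantile normalisation, 1 probe set per gene, other moderation, no strain block and each pair left out.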

Additional observations from a re-analysis of the deposited data

Results flagged for a closer look

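The gene whe of the midgut list had opposite differences between ZT16 and ZT4 in 2 strains. It was 7.79 higher at ZT16 in tim-gal4 control heads, and differed by -3.65 in w1118, a gap of 11.4 on the log2 scale. Values near background enter both differences (2.66 at tim-gal4 control ZT4 and 2.55 at w1118 ZT16), so the size of this gap depends on the floor of the deposited values. In knockout heads it was at 10.87 at ZT16, with a difference of 2.87 over ZT4. Its levels at ZT16 and ZT4 were 10.45 and 2.66 in tim-gal4 control heads, 2.55 and 6.20 in w1118, and 2.79 and 2.66 in overexpression. The ZT4 arrays of the knockout and w1118 thus showed it, and those of the other strains did not.

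DptB also moved in opposite directions, with 2.37 in w1118 and -4.51 in tim-gal4 control heads, a gap of 6.88. Its levels were 5.67 at ZT16 and 7.34 at ZT4 in knockout heads, 4.14 and 8.65 in tim-gal4 control heads, 8.01 and 5.65 in w1118, and 6.83 and 6.67 in overexpression. Each strain has 1 array at each time, so neither gap between strains was tested.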

How the results depend on the processing

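No paired analysis was possible by replicate number because each strain and time has 1 array; the pairing of ZT16 with ZT4 within strains is the strain block of the limma fit. No named limma call, and no named difference of 2-fold or more within the knockout or the tim-gal4 control pair, changed sign; list medians of Malpighian tubule, core clock, glia and hemocyte genes, all close to 0, did. The 409 raised probe sets became 322 at a 4-fold limit, 563 with no filter and 405 after quantile normalisation, of which 399 were shared. The 38 lowered ones became 4 at 4-fold. Among transcripts above log2 6 at ZT4, the 14 higher ones became 34 at 1.5-fold, 4 with the level limit at log2 7 and 2 at log2 8, and the 24 lower ones became 95 at 1.5-fold, 11 at log2 8 and 15 after centring on their median difference, where 17 were higher. In the w1118 and overexpression pairs, an alternative chosen after seeing the data, 14 probe sets were raised and 12 lowered, with 1 higher and 6 lower above log2 6. The cause of these moves was not tested.

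The 31 limma calls became 234 with a trend and robust moderation, 7 without the strain block, 3 after quantile normalisation and 0 with no filter on low values (1542 at an unadjusted p under 0.05). Leaving out 1 strain's pair gave between 0 and 1. In alternatives chosen after seeing the data, without both the knockout and the tim-gal4 control pairs limma gave 0 calls (670 at an unadjusted p under 0.05), and without the probe sets raised from below log2 4 it gave 252, of which 70 were higher at ZT16 and 182 lower. Some limma differences that had not passed changed sign: without the knockout and tim-gal4 control pairs tobi was at -0.19, Scp1 at -0.12, CG5162 at -0.13, Mpcp1 at -0.23, DptB at 1.26, Pdfr at 0.0594 and Pdf at 0.0730, and without the tim-gal4 control pair DptB was at 0.29 and Pdf at 0.0068. Over these alternatives the adjusted p of cry ran from 4.33e-05 to 0.606 and that of per from 1.39e-05 to 0.606. Single arrays and values near background limit all differences.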

Other observations

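Transcripts of 4 probe sets were raised at ZT16 in knockout heads and the tim-gal4 control and at least 2-fold lower at ZT16 in w1118. They were whe, CG16826, Ag5r and a probe set with several symbols, and were chosen after their values were seen. CG16826 was at 10.65 at ZT16 and 7.84 at ZT4 in knockout heads, 10.89 and 2.32 in tim-gal4 control heads, 2.32 and 6.28 in w1118, and 2.32 at both times in overexpression. Ag5r, of the family of insect venom antigen 5 relatives, was at 7.69 and 5.65 in knockout heads, 8.89 and 2.88 in tim-gal4 control heads, 3.19 and 4.82 in w1118, and 2.90 and 3.06 in overexpression. Both were thus seen on 4 of the 8 arrays: both knockout arrays, tim-gal4 control ZT16 and w1118 ZT4. The accessory gland and duct genes Acp53C14b, SP, EbpII and Anp were at 2.33 or below at w1118 ZT4.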
